A study of Drosophila melanogaster with 3 samples.

Results

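In unfertilized eggs of Drosophila melanogaster, 70 of 295 genes that host a stable intronic RNA were listed with a single hexamer of the poly(A) signal that was not the canonical one. A stable intronic sequence RNA, or sisRNA, is a piece of an intron that outlasts splicing. The hosts were chosen by the hexamer column of the authors' longer list, with no read count used. That column named 1 hexamer other than its most frequent one for 76 hosts, and 6 of these (loqs, ck, wal, cap-H2, RpL35A and alphaTub84B) were left out by name. Of the remaining hosts 30 listed auaaaa alone and 40 listed auuaaa alone. The eggs came from y w flies, and 3 libraries were sequenced, namely the polyA-minus fraction, the polyA-plus fraction and total RNA, each depleted of ribosomal RNA and each made once. Each sisRNA has 1 read count, tied to no library and without a replicate, and the fractions could not be compared. No messenger RNA levels were given, so the egg could not be checked against marker genes, and the depth of the libraries is unknown.

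At the end of most animal messenger RNAs a poly(A) signal is bound by the cleavage and polyadenylation specificity factor, which cuts the transcript downstream of it so that a poly(A) tail can be added. The canonical signal is the hexamer AAUAAA, and AUUAAA is the commonest of its natural variants. A signal inside an intron can in principle give a shortened, polyadenylated transcript, and an egg, which stores RNA made by the mother, is a cell where stable intronic RNA can be followed without new transcription. The hexamers are shown because they define these hosts, written from the 5′ end, with the bases that differ from the canonical hexamer in capitals.

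canonical hexamer: aauaaa
shifted variant: aUAaaa
substituted variant: aUuaaa

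The substituted variant differs from the canonical hexamer by A2U, counted from 1 at the 5′ end. The shifted variant differs by A2U and U3A, and its first 5 letters are also the last 5 letters of the canonical hexamer. Both hexamers therefore stand in the 7 letters aauaaaa. The variants differ from each other by A3U.

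In the longer list auaaaa was named for 84 hosts, and in 33 of these it stood alone (39.3%, exact 95% interval 28.8% to 50.5%). For auuaaa the figure was 43 of 71 hosts (60.6%, 48.3% to 72.0%). The canonical hexamer stood beside auaaaa in 43 of its 84 hosts (51.2%, 40.0% to 62.3%) and beside auuaaa in 20 of its 71 hosts (28.2%, 18.1% to 40.1%). Both variants without the canonical hexamer were named for 8 hosts, and all 3 hexamers for 6. The difference between the variants in these shares was not tested. The stretch that was searched, and the way overlapping hexamers were listed, are unknown. Whether any listed hexamer acts as a signal was not measured.

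Of the 70 single-variant hosts 32 had a read count in the authors' counted list (45.7%, 33.7% to 58.1%), as had 105 of the other 225 hosts (46.7%, 40.0% to 53.4%). The counted list holds 140 sisRNAs. The 32 of the single-variant hosts together held 2208 of its 11169 reads (19.8%, 19.0% to 20.5%). With the 6 hosts left out by name added back, 4 of which were counted, the share was 31.0%. The median count was 46 reads (order-statistic 95% interval 27 to 85), against 51 reads (40 to 64) in the other 108 counted sisRNAs. The other hosts and sisRNAs, here and below, include those left out by name. Without these, the 87 other counted hosts of the longer list had a median of 44 reads (35 to 61). Which median was higher therefore depended on the names left out. Of the 32, 6 had at least 100 reads and 8 had under 20. Among the other 108, these numbers were 23 and 17, and among the 87 they were 15 and 16. The counts are raw and the length of each sisRNA is not given, so a longer sisRNA can have more reads at the same abundance. Intervals on single counts are exact Poisson 95% intervals and, like those on shares of reads, cover counting error only. Intervals on shares of hosts or genes, and those on medians, treat each gene as an independent draw. Genes of the same list are not replicates, so these intervals, here and below, are descriptive and their overlap is not a test.

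Among the 30 hosts with auaaaa alone, 13 had a read count, with a median of 61 reads (15 to 142) and a range of 8 to 163. CG34408 on X had 163 reads (139 to 190), centred at 10115105 (centres are in dm3). CG8408, now named stas, encodes a membrane protein and had 158 reads (134 to 185) at 17520626 on X. CG14478 had 142 reads (120 to 167) at 13345946 on 2R. The intervals of these 3 sisRNAs overlap, so their order was not resolved, and together they held 52.0% of the reads of the 13. The next was cmet, which encodes a kinesin motor of the kinetochore, with 94 reads (76.0 to 115) at 11266741 on 2L, and its interval lay below those of all 3. CG12384 on 2R, at 7246251, had 85 reads (67.9 to 105). The middle of the group was formed by CG12054 with 64 reads, CG4615 with 61 and CG5362, the cytosolic malate dehydrogenase gene Mdh1, with 39.

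The lower end of the auaaaa hosts began with sec71, an exchange factor gene for Arf GTPases, with 28 reads (18.6 to 40.5) at 13794715 on 2L. CG5899, now Etl1, is related to the SNF2 chromatin remodelling enzymes and had 19 reads (11.4 to 29.7) at 9912020 on 2L. It was the single host of the 32 whose hexamers differed between the lists, since the counted list named no hexamer for it. CG1657, now Gapvd1, a regulator of Rab5, had 15 reads (8.40 to 24.7) at 11220378 on X. It carried the remark of a cis-natural antisense transcript in both lists, and strand-specific counting is not stated. The metallothionein gene MtnA, whose product binds metal ions, had 14 reads (7.65 to 23.5) at 5609890 on 3R. Graf had 8 reads (3.45 to 15.8) at 15649047 on X, the fewest in the counted list. The intervals of the last 4 overlap.

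**Figure D1:**
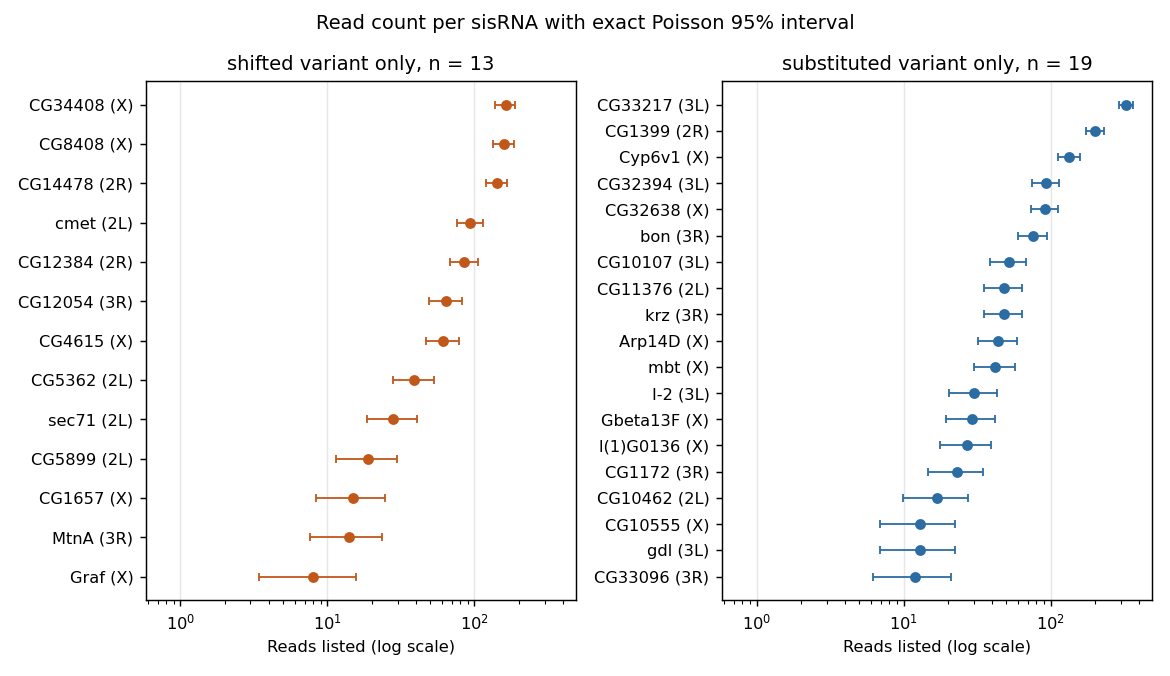
Reads listed per sisRNA (x axis, log scale) for the hosts with the shifted variant alone (left, 13 sisRNAs) and the substituted variant alone (right, 19 sisRNAs), with the chromosome arm in brackets and exact Poisson 95% intervals as bars. CG33217, at 325 reads, lies above every other host in the plot, and Graf, at 8 reads, has the lowest count.

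Among the 40 hosts with auuaaa alone, 19 had a read count, with a median of 44 reads (23 to 91) and a range of 12 to 325. CG33217 had 325 reads (291 to 362) at 23123918 on 3L. CG1399, annotated as LRR for its leucine-rich repeats, had 201 reads (174 to 231) over 2 centres, 3567927 and 3569854 on 2R, which lie 1927 bases apart. The single count covers both centres and could not be divided between them. Cyp6v1, a cytochrome P450 gene, had 134 reads (112 to 159) at 20530058 on X. These 3 intervals do not overlap one another, and the 3 sisRNAs held 50.1% of the reads of the 19. CG32394, annotated as dikar, had 93 reads (75.1 to 114) at 6731669 on 3L and CG32638 had 91 (73.3 to 112) at 13019568 on X, a difference within counting error. The next, bon, encodes a transcriptional cofactor of the TIF1 family and had 76 reads (59.9 to 95.1) at 16419966 on 3R.

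From 52 to 42 reads stood CG10107, or velo, a SUMO protease gene, CG11376, or Zir, an exchange factor gene of the DOCK family, krz, the fly beta-arrestin gene, Arp14D, which encodes the Arp2 subunit of the actin-nucleating Arp2/3 complex, and mbt, a p21-activated kinase gene. Their intervals overlap. I-2, an inhibitor of protein phosphatase type 1, had 30 reads (20.2 to 42.8), Gbeta13F, a G protein beta subunit gene, had 29 (19.4 to 41.6), l(1)G0136, or MagR, an iron-sulphur cluster assembly gene, had 27 (17.8 to 39.3), and CG1172 had 23 (14.6 to 34.5). The lowest were CG10462 with 17 reads, CG10555 and gdl with 13 each, and CG33096 with 12 (6.20 to 21.0). None of the 19 had a remark in either list.

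The medians of the hexamer groups, 61 reads for auaaaa alone and 44 for auuaaa alone, have intervals that overlap over most of their length. The log2 ratio of these medians was 0.47, and it was -0.14 without arm 2R. Hosts with the canonical hexamer alone had a median of 60 reads (24 to 74, n = 24), those with several hexamers 48.5 (39 to 87, n = 34) and those with none 37 (27 to 59, n = 43). Names left out by the choice of hosts, for example piwi, Nipped-B and glo, were kept in these classes. The variant groups and these classes were therefore not filtered alike, for the medians and for the shares below. All 5 intervals share the range from 39 to 59 reads. The share with a read count was 43.3% for auaaaa alone (13 of 30, 25.5% to 62.6%) and 47.5% for auuaaa alone (19 of 40, 31.5% to 63.9%), against 30.0% for the canonical hexamer alone (24 of 80, 20.3% to 41.3%), 52.3% for several hexamers (34 of 65, 39.5% to 64.9%) and 58.1% for none (43 of 74, 46.1% to 69.5%). Neither the medians nor the shares were tested, since genes of 1 list are not replicates.

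**Figure D2:**
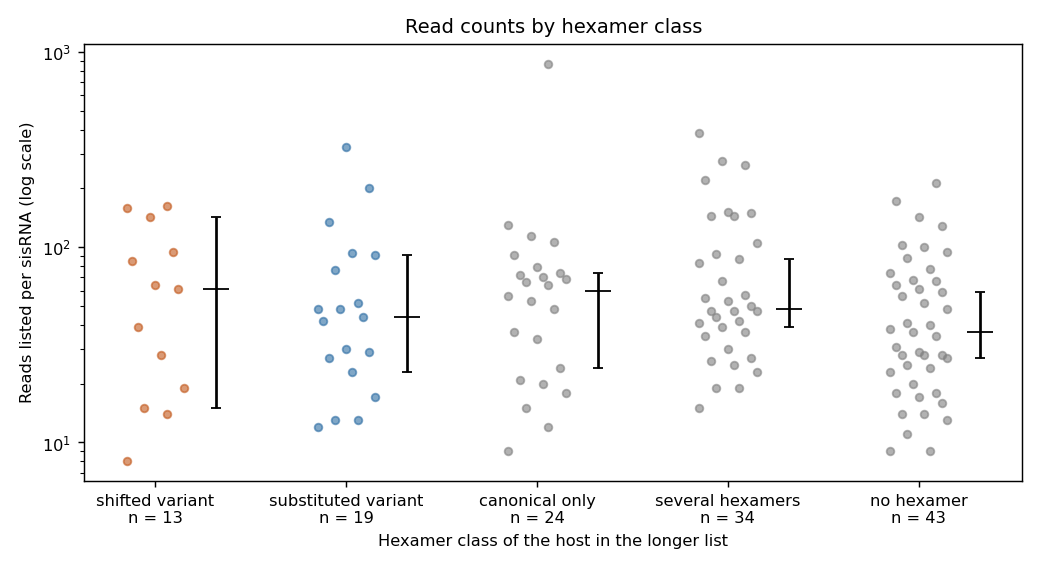
Reads listed per sisRNA (y axis, log scale) by hexamer class of the host, with 1 point per sisRNA and, beside each class, the median with its order-statistic 95% interval. The classes overlap over most of their range, with medians between 37 reads (no hexamer) and 61 reads (shifted variant alone). Names left out by the choice of hosts are absent from the variant classes but kept in the others.

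A known role could be given to 48 of the 70 hosts. Of these, 18 had a read count (37.5%, 24.0% to 52.6%), beside 45.7% of all 70 and 63.6% of the 22 without a role. The role groups hold 4 to 10 hosts each, and their counted shares were not tested. Signalling enzymes and their regulators numbered 7, of which 2 had a read count, mbt (42 reads) and I-2 (30 reads). The others were rl, the ERK MAP kinase gene, wnd, a kinase gene that acts upstream of JNK, SK2, a sphingosine kinase gene, PI3k68D, a phosphoinositide 3-kinase gene, and Spn, or spinophilin, whose product binds protein phosphatase type 1. Ligands, transducers and release factors numbered 5, all with auuaaa, beside 40 of all 70 hosts. Of the 5, krz (48 reads) and Gbeta13F (29 reads) were counted. Without a count were the growth factor gene Pvf1, the gene of the calcium sensor calmodulin (listed as cam), and disp, which is needed to release Hedgehog.

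Cell division and actin genes numbered 6. Besides cmet and Arp14D these were cycA, the mitotic cyclin A gene, CG17912, or BuGZ, Actn, the alpha-actinin gene, and CG32306, or Svil, the supervillin gene, none of which had a count. For chromatin and transcription, CG5899 and bon were counted, whereas BEAF-32, an insulator protein gene, and MED1, a Mediator subunit gene, were not. Of 6 hosts for membranes, channels and junctions only CG8408 was counted. The others were the reticulon gene Rtnl1, the potassium channel gene KCNQ, the innexin gene inx7, CG42321, the phospholipid flippase gene ATP8A, and CG34413, or NKAIN. Metabolism, metals and protein handling gave 10 hosts, 5 of them counted, at 14 to 134 reads. The uncounted ones included hsc70cb, an Hsp110 chaperone gene.

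None of the 4 hosts that act on RNA had a read count, which for 4 hosts allows a share of up to 60.2% (exact 95% interval) and so includes the 45.7% of all 70 hosts. They were snama, whose human relative RBBP6 belongs to the machinery that cuts messenger RNA ends, CG11486, or PAN3, a subunit of the PAN2-PAN3 deadenylase, qkr58E-1, an RNA-binding protein gene of the STAR family, and pncr012:2L. The last is annotated as Uhg3, a non-coding gene with 3 small nucleolar RNAs of the Me28S-C2645 family in its introns. It was the one host annotated as a gene without a protein among the 68 matched on the listed arm.

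Some genes of the machinery that reads the poly(A) signal were among the hosts. Of 19 cleavage and polyadenylation genes matched to the annotation 5 were in the longer list (26.3%, 9.15% to 51.2%), beside 285 of the 11740 intron-bearing protein-coding genes of the 5 main arms (2.43%). These shares are not over like sets, since the genes of the fixed lists were matched without regard to introns or arm. Neither set was limited to genes with RNA in the egg, for which no levels were given. Of the 5, only snama belonged to the single-variant hosts, with auuaaa. Pcf11, which couples cleavage to termination, hrg, the poly(A) polymerase gene, and Pabp2, the nuclear poly(A)-binding protein gene, each listed the canonical hexamer alone and had no count. CG7185, the CFIm68 subunit gene now named Cpsf6, listed auuaaa with the canonical hexamer and had 152 reads (129 to 178). For the other fixed lists, the share in the longer list was 13.3% of 30 transcription and chromatin genes and 10.5% of 19 nuclear pore genes. It was 11.8% of 34 kinase, phosphatase and cell cycle genes, 5% of 40 vesicle and GTPase genes and 3.33% of 30 signalling genes. The list of intron debranching, nuclear RNA decay and splicing helicase genes held no host. Neither did that of germ plasm, axis and egg activation genes or that of follicle cell and chorion genes. The longer list holds hosts that none of the fixed lists names, for example piwi, BicC and glo. All lists were chosen with earlier results of these data known, and these shares were not tested. The fixed lists are short and do not name most of the hosts described above, such as rl, wnd, mbt, bon, MED1, CG11486 and Pvf1. Of all 11740 genes 0.571% were single-variant hosts (67 genes), so lists of this size could be expected to hold few or none, and the counts set no list apart. The single-variant hosts held 1 of 34 listed kinase, phosphatase and cell cycle genes (cycA) and 1 of 40 vesicle and GTPase genes (Graf). They held none of the listed genes in the other groups, namely 16 intron debranching, RNA decay and splicing genes, 19 nuclear pore genes, 30 transcription and chromatin genes, 30 signalling receptor and ligand genes, 24 germ plasm, axis and egg activation genes and 18 follicle cell and chorion genes.

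By chromosome arm the single-variant hosts numbered 12 on 2L, 15 on 2R, 19 on 3L, 8 on 3R and 16 on X. On 3R they made up 8 of the 63 listed hosts (12.7%, 5.65% to 23.5%). Elsewhere the share was between 24.6% on X (14.8% to 36.9%) and 31.7% on 3L (20.3% to 45.0%), and these intervals overlap that of 3R. The hosts left out by name stayed in the totals per arm, which lowered the share on 3R. With these names kept in, 3R held 14.5% of the 76 single-variant hosts, against 11.4% of the 70. On 2L the share of the single-variant hosts rose from 17.1% to 18.4%, and on 2R, 3L and X it fell. A read count was given for 12 of 16 hosts on X (75.0%, 47.6% to 92.7%), for 6 of 8 on 3R (75.0%, 34.9% to 96.8%) and for 6 of 12 on 2L (50.0%, 21.1% to 78.9%). It was given for 5 of 19 on 3L (26.3%, 9.15% to 51.2%) and for 3 of 15 on 2R (4.33% to 48.1%). The other hosts were counted at 59.2% on X, 56.4% on 3R, 36.1% on 2L, 34.1% on 3L and 41.9% on 2R.

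The counts by hexamer on 3L and 2R were as follows, without a test. On 3L none of the 8 hosts with auaaaa alone had a read count (interval up to 36.9%), against 5 of 11 with auuaaa alone (16.7% to 76.6%). These 8 include cycA, MED1, wnd, SK2 and hsc70cb. On 2R 2 of 4 hosts with auaaaa alone were counted (6.76% to 93.2%), against 1 of 11 with auuaaa alone, CG1399 (0.230% to 41.3%). Among the 10 without a count were rl, cam, KCNQ, BEAF-32 and snama. The intervals of each pair overlap. How the authors took hosts into the counted list is not stated.

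**Figure D3:**
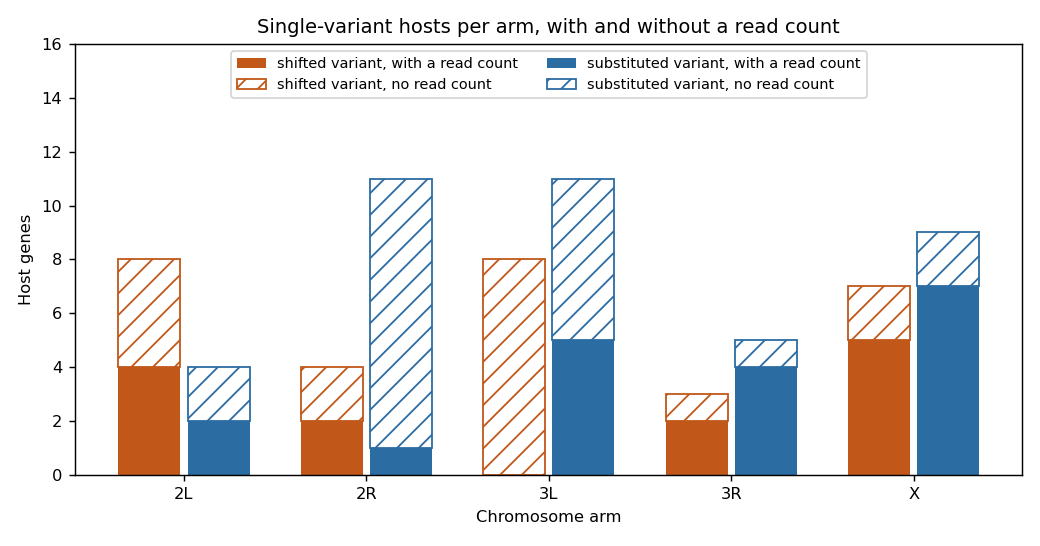
Number of single-variant host genes (y axis) per chromosome arm, with the shifted variant at left and the substituted variant at right in each pair. Filled parts are hosts with a read count and hatched parts those without. On 3L none of the 8 shifted-variant hosts is filled, and on 2R 1 of the 11 substituted-variant hosts is.

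Gene structure was taken from the BDGP6 annotation for the 67 hosts that matched a protein-coding gene with an intron on the listed arm. CG41262 had no match, CG7453 matched a gene of another arm, and pncr012:2L is non-coding. The median longest intron was 1270 bases (944 to 2224), against 2228 bases (1684 to 2948) in 218 other hosts and 248 bases (232 to 263) in all 11740 intron-bearing protein-coding genes. The median was 1554 bases (1024 to 3042) with auaaaa alone and 970 bases (795 to 2224) with auuaaa alone. Hosts with a read count had 988 bases (492 to 1874), and those without had 2439 bases (992 to 4554). The longest introns among the uncounted hosts were 56694 bases in CG32306, 37343 bases in KCNQ and 25405 bases in rl. Among the counted hosts the longest were 12236 bases in bon and 9816 bases in CG1399. The other hosts showed a split in the same direction. Their median longest intron was 1165.5 bases (852 to 1637) with a read count and 4590 bases (2456 to 5887) without one.

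Read counts were set against the longest intron of the host. Spearman's rank correlation across hosts was 0.72 for auuaaa alone (n = 19), 0.31 for auaaaa alone (n = 13), 0.53 for both (n = 32) and 0.24 for the other counted hosts (n = 104). All points come from the same pooled count column, genes are not independent replicates, and the differences between these values were not tested. In 8 of the 32 counted hosts every annotated intron was under 400 bases. Their sisRNAs had 13 to 48 reads, with a median of 18 (13 to 48), and the other 24 had 8 to 325 reads, with a median of 62.5 (39 to 94). The 8 were CG11376 with 48 reads, I-2 with 30, sec71 with 28, CG5899 with 19, CG10462 with 17, MtnA with 14, and CG10555 and gdl with 13. Of the 104 other counted hosts, 12 had every intron under 400 bases, at 9 to 212 reads and a median of 24 (14 to 91). The remaining 92 had 9 to 869 reads and a median of 53 (42 to 66).

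**Figure D4:**
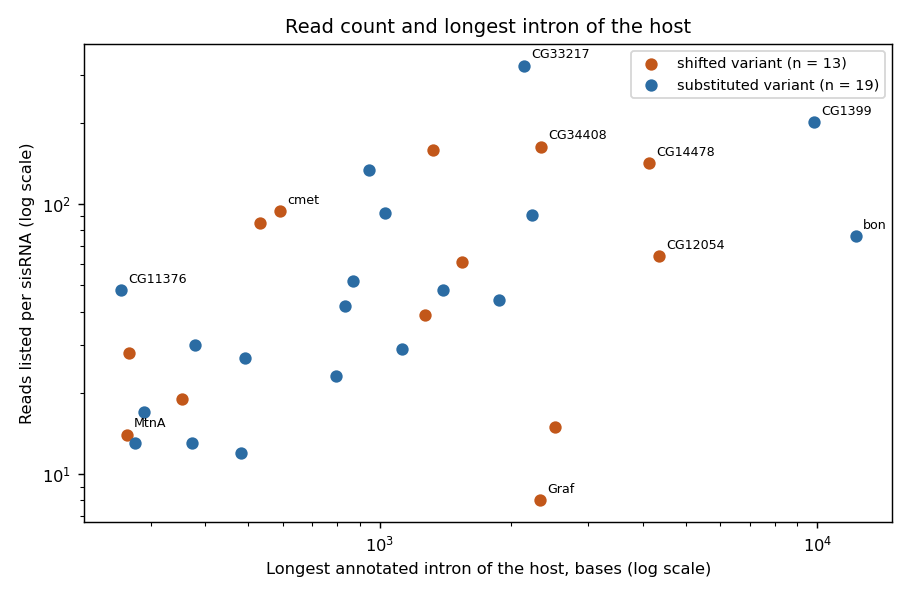
Reads listed per sisRNA (y axis, log scale) against the longest annotated intron of the host in bases (x axis, log scale), with 1 point per counted host. Substituted-variant hosts with introns under 500 bases lie at 48 reads or fewer, whereas Graf, with a longest intron of 2323 bases, has 8 reads.

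If a sisRNA lies within 1 annotated intron, its reads divided by the longest intron of the host give a lower bound on reads per kilobase. That bound was 188 for CG11376, 159 for CG12384, 159 for cmet, 152 for CG33217, 142 for Cyp6v1 and 119 for CG8408. It was lowest for bon (6.21), CG1657 (5.97) and Graf (3.44). A single annotated intron leaves 1 candidate. Counted hosts of this kind were krz with 48 reads and an intron of 1399 bases, CG5362 with 39 reads and 1270 bases, and MtnA with 14 reads and 264 bases, which gave 34.3, 30.7 and 53.0 reads per kilobase of intron. SK2, with 1 intron of 479 bases, had no count.

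The annotation itself names 10 sisRNA genes, and 5 of them lie in an intron of a listed host. The single-variant hosts hold 2. In mbt, sisRNA:2 is annotated at X:16612777-16613274 (BDGP6), which is 498 bases inside an intron of 832 bases, and mbt had 42 reads (30.3 to 56.8). In CG9775, which listed auaaaa, sisRNA:CR46358 is annotated at 3R:4639789-4640004 (BDGP6), 216 bases of an intron of 260 bases, and CG9775 had no read count. Whether these annotated RNAs are the ones in the deposited lists was not determined, since the lists use dm3.

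Other annotated features overlapped some hosts. A gene on the opposite strand, transposable elements aside, overlapped 24 of the 67 hosts (35.8%, 24.5% to 48.5%), against 40.8% of the other hosts (34.2% to 47.7%) and 40.2% of all 11740 genes. It did so in 7 of the 32 counted hosts and in 17 of 35 uncounted ones. The counted ones were Cyp6v1, cmet, CG32638, bon, l(1)G0136, CG1172 and Graf, at 8 to 134 reads. The shares were 21.9% of the counted and 48.6% of the uncounted hosts, beside 28.8% of the counted and 51.8% of the uncounted other hosts. Of the 2 single-variant hosts that the authors marked with a cis-natural antisense transcript, 1 had an opposite-strand gene in this annotation, and CG1657 had none. A transposable element lay in an intron of 8 of the 67 hosts (11.9%, 5.30% to 22.2%), against 19.3% of the other hosts (14.3% to 25.1%) and 6.42% of all 11740 genes (5.99% to 6.88%). The counted ones among the 8 were CG33217, with 5 elements of the INE-1, 1360 and HB families, and bon, with 1 INE-1 element. Reads of repeated elements can map to several places, and how such reads were treated is not given. Their part in the 325 reads of CG33217 was not tested.

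In the order of genes along each arm 8 of the 67 hosts were among the 10% nearest the centromere (11.9%, 5.30% to 22.2%), against 43 of 218 other hosts (19.7%, 14.7% to 25.6%). They were rl, CG33217, CG9775, CG1172, MED1, Cyp6v1, disp and CG10462. Of these, 4 had a count, CG33217 with 325 reads, Cyp6v1 with 134, CG1172 with 23 and CG10462 with 17. CG1399 lay just outside, at 10.5%.

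Some centres lay close together in dm3. CG12384 (85 reads) was 2579 bases from san (17 reads) on 2R, and bon (76 reads) was 9302 bases from CG16953 (77 reads) on 3R. CG10107 (52 reads) and CG32394 (93 reads), both with auuaaa alone, were 13291 bases apart on 3L. Graf (8 reads, auaaaa) and l(1)G0136 (27 reads, auuaaa) were 20221 bases apart on X. The intervals of Graf and l(1)G0136 do not overlap, and neither do those of CG10107 and CG32394, so the hosts of each of these pairs differed in count by more than counting error.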

How the data were processed

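RNA of unfertilized eggs was sequenced as 3 libraries with 1 library per group. The authors deposited 2 sheets, a longer list of host genes with hexamers and a counted list with whole-number read counts, without normalization, in a column that names no library. That column was therefore treated as 1 pooled value per sisRNA. Per the submitters' processing notes, coordinates are those of dm3. For the aligner, the counter and the calling rule, nothing is given in the sources used here.

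The lists were joined by exact symbol after remarks in brackets were removed. Of the 70 hosts 69 matched the Ensembl release 115 annotation BDGP6.54 by symbol or synonym, PI3k68D among them without regard to case. On the listed arm 68 of the 69 matched. That annotation has another build than dm3 and gave only names, lengths, overlaps, gene order and the 2 BDGP6 positions of annotated sisRNAs. Exact Poisson and Clopper-Pearson 95% intervals and order-statistic intervals of medians were computed with Python 3.11.15, numpy 2.4.6 and scipy 1.17.1, checked on simulated data. No test was made, because no value has a replicate. Every counted host could be named, and uncounted ones where a role is well known. The hosts and gene lists were chosen with earlier results of these data known, and the role groups after the hosts had been read. Some roles and hosts are not reported here.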

Additional observations from a re-analysis of the deposited data

How the results depend on the processing

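The median read count of the 32 counted single-variant hosts (46 reads) ranged from 42 to 62.5 under 13 alternatives, within its interval. These alternatives set a floor of 10 or 20 reads or dropped the highest single-variant sisRNA. For the medians by hexamer and their ratio, the highest of each hexamer was dropped, CG34408 and CG33217. Others dropped the sisRNAs marked as having a cis-natural antisense transcript or those with several centres. Further ones used the hexamers of the counted list, kept the left-out names or dropped each of 5 arms. The last, added after the data were seen, dropped hosts with a transposable element in an intron. The medians for auaaaa alone (39 to 85) and auuaaa alone (42 to 48) also stayed within their intervals. The log2 ratio between them ranged from -0.14 without arm 2R to 0.82, so its direction is not settled. The share of listed reads (19.8%) moved by more than its counting error to 31.0% with the left-out names kept, 17.4% without CG33217, 20.8% without the sisRNAs so marked and 18.7% without those with several centres. It was 21.6% without arm 2R, 19.0% without 3L, 22.5% without 3R and 16.8% without X. These shifts follow from taking sisRNAs in or out of the sum. In place of the longest intron, gene length had a median of 6154 bases and the number of introns one of 7. The number of hosts was 76 with the left-out names kept, and the share counted 47.4%. No paired analysis was possible because there is 1 library per group and the counts belong to no library. The order of the sisRNAs with few reads was not resolved at this depth.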
